A study of Homo sapiens with 6 samples.

Results

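In all, 10 genes of the Toll-like receptor and MYD88 pathway were followed across the 6 RNA-seq libraries: the receptors TLR1, TLR6, TLR7, TLR9 and TLR10, the receptor-related gene CD180, the adaptor MYD88, the kinases IRAK1 and IRAK4, and the ubiquitin ligase TRAF6. They are 10 of the 56584 gene symbols named in the tables, and each was found by its symbol among the names of a table row, whether it stood there alone or beside another gene. The cells were LY19WT and LY19Y646F, which the labels describe as immortalized lymphoma B cells with 3 biological replicates each. LY19WT carried wild-type EZH2, a histone H3 lysine 27 methyltransferase, and LY19Y646F carried constitutively expressed EZH2-Y646F under a CMV promoter. All 6 cultures were untreated and at passages 10 to 15. No empty-vector line is among the samples, so the transgene, the vector and any difference between the cell stocks cannot be told apart. The labels do not say whether the transgenic line is 1 clone.

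Toll-like receptors recognise microbial lipids, proteins and nucleic acids. TLR1, TLR6 and TLR10 sit at the cell surface, while TLR7 and TLR9 read RNA and DNA in endosomes. Most of them signal through MYD88, which gathers IRAK4 and IRAK1 into a complex that engages TRAF6 and turns on NF-kB and mitogen-activated kinases. CD180 resembles the receptors outside the cell but lacks their signalling domain. In B cells the pathway feeds activation, antibody responses and survival, and it is a recurrent target of activating mutations in B cell lymphoma.

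Levels are FPKM, fragments per length of transcript and per total of mapped fragments, as Cufflinks gave them for each library. Read totals were not used here, so the depth is unknown, and precision is given by the 95% confidence interval that Cufflinks attached to each row. Differences are LY19Y646F minus LY19WT on the log2(FPKM + 1) scale, which understates the change of genes at low levels. They were tested with limma over all 10667 genes that had a row of their own and a mean of at least 0.5 FPKM, with Benjamini-Hochberg adjustment and a threshold of 0.05.

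The lines stood apart across the transcriptome. Pearson's r between libraries, over 10667 genes on the log2 scale, was 0.878 to 0.913 within LY19WT and 0.867 to 0.929 within LY19Y646F, but 0.733 to 0.773 between the lines. In the limma test 3546 of 10667 genes passed, 33.2%, with 16.7% higher and 16.5% lower in LY19Y646F. EZH2 itself, whose rows do not separate the transgene from the endogenous gene, was at 70.6 ± 8.73 FPKM (SD, n = 3) in LY19WT and 81.4 ± 11.7 FPKM in LY19Y646F, an adjusted p of 0.38 in limma. Immunoglobulin genes differed too: IGHV3-23 was at 0.861 ± 0.729 FPKM in LY19WT against 5219 ± 1136 FPKM in LY19Y646F, and IGLV1-40 was at 374 ± 68.2 FPKM in LY19WT but at 0, 0.0803 and 0 FPKM in LY19Y646F. Whether the lines share an origin was not tested, so the differences given here are between the lines as sampled and cannot be assigned to EZH2-Y646F. Summed over 5 precursor B cell markers, FPKM ranged from 781 to 2345 in LY19WT and from 1.76 to 5.71 in LY19Y646F. IGLL1, at 1628 FPKM in LY19WT replicate 1, and RAG1 shared rows with other genes, so their sums are not of the markers alone. DNTT, VPREB1 and RAG2 had rows of their own and were lower in LY19Y646F (limma adjusted p of 4.6e-05, 1.6e-04 and 4.7e-05). The 7 B cell markers summed to 397 to 590 and 587 to 940 FPKM, with MS4A1 under 1 FPKM in every LY19WT library. Other B cell markers went the opposite way: EBF1 was at 43.5 FPKM on average in LY19WT against 5.20 FPKM in LY19Y646F (limma adjusted p = 3.5e-05), and PAX5, which was not tested because its row has a failed status in LY19WT replicate 1, was at 99.6 FPKM against 27.2 FPKM. The 5 plasmacytoid dendritic markers summed to 74.8 to 92.7 FPKM in LY19WT but to 3.12 to 6.01 FPKM in LY19Y646F. Most of that sum was TCF4, at 85.4 FPKM on average in LY19WT against 3.33 FPKM in LY19Y646F (limma adjusted p = 2.7e-05), while CLEC4C, LILRA4 and GZMB were under 1 FPKM in all 6 libraries and IL3RA did not exceed 2.41 FPKM. The 5 T cell markers were at 0 in LY19WT and summed to 1.51 to 2.12 FPKM in LY19Y646F. Of 6 myeloid markers, CSF1R, ITGAM and MPO were under 1 FPKM in every library, while LYZ and CD33 were lower in LY19Y646F. The row that holds CD68 with EIF4A1 and other genes made up most of the myeloid sum, which was 624 to 1613 FPKM in LY19WT and 594 to 2507 FPKM in LY19Y646F, so the ranges overlapped. The part of these differences in the results was not tested. LY19WT replicate 3 had 27.5% of its summed FPKM in its top 10 rows, against 5.71% to 9.38% in the others.

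TLR10 was the member that differed most between the lines. It is a B cell receptor of the TLR1 family whose ligand is not settled. Its own row on chromosome 4 (hg19, 38773860 to 38784611 in LY19WT) gave 0.362, 0.362 and 0.317 FPKM in LY19WT against 32.1, 43.8 and 40.9 FPKM in LY19Y646F. Every LY19Y646F library lay far above every LY19WT library. Means were 0.347 ± 0.0262 FPKM in LY19WT (SD, n = 3) and 38.9 ± 6.11 FPKM in LY19Y646F (SD, n = 3), a ratio of 112. The log2 difference was 4.88 ± 0.15 (SE), with a limma adjusted p of 2.7e-05. The half-width of the Cufflinks interval was 43.0% to 44.9% of the value in LY19WT and 3.34% to 3.55% in LY19Y646F, so the level is precise only in LY19Y646F.

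CD180 showed the same direction. Its row on chromosome 5 (hg19, 66478103 to 66492627 in LY19WT) gave 0.175, 0.0585 and 0.0872 FPKM in LY19WT against 6.05, 8.54 and 8.95 FPKM in LY19Y646F. In LY19Y646F replicates 2 and 3 the row also carried the noncoding CTD-2306M10.1, and the value of replicate 1, where CD180 stood alone, was the lowest of the 3 but still above all of LY19WT. Means were 0.107 ± 0.0607 FPKM in LY19WT (SD, n = 3) and 7.85 ± 1.57 FPKM in LY19Y646F (SD, n = 3). The log2 difference was 2.98 ± 0.18 (SE), with a limma adjusted p of 1.8e-04. In LY19WT the Cufflinks interval reached 0 in replicates 1 and 2, so the ratio of the means, 73.4, has an imprecise denominator. Both TLR10 and CD180 met the minimum level only through their LY19Y646F libraries, and a gene that does so had to differ.

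TLR1 and TLR6 could not be separated. They are neighbours of TLR10 on chromosome 4, each pairs with TLR2 to sense bacterial lipopeptides, and in all 6 libraries they shared a single row (hg19, 38792298 to 38858438 in LY19WT). That row gave 0.656, 0.823 and 0.708 FPKM in LY19WT against 8.96, 14.9 and 5.53 FPKM in LY19Y646F. No library of one line reached the other line, although the LY19Y646F values spread more than those of LY19WT. Means were 0.729 ± 0.0852 FPKM in LY19WT (SD, n = 3) and 9.81 ± 4.76 FPKM in LY19Y646F (SD, n = 3), a ratio of 13.4. The half-width of the Cufflinks interval was 36.2% to 79.6% of the value in LY19WT, so that ratio has an imprecise denominator. In LY19Y646F it was 4.35% to 11.7%. In a fit where a merged row counts for every gene it names, and where 26.1% of 17294 genes passed, the log2 difference was 2.55 ± 0.36 (SE) with a limma adjusted p of 0.0058. How much of it belongs to TLR1 and how much to TLR6 cannot be told apart.

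TLR7, the endosomal sensor of single-stranded RNA, was close to 0 in both lines. Its own row on chromosome X (hg19, 12885202 to 12908499) gave 0, 0.00341 and 0.00352 FPKM in LY19WT against 0.114, 0.157 and 0.120 FPKM in LY19Y646F. The lines did not overlap, but no value reached 1 FPKM and the Cufflinks interval excluded 0 only in LY19Y646F replicate 2. The gene was therefore below the minimum of the main fit. Without that minimum its log2 difference was 0.17 ± 0.018 (SE), with a limma adjusted p of 0.0032. The authors' deposited table of line means listed TLR7 at 0.00262 FPKM in LY19WT against 0.213 FPKM in LY19Y646F.

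TLR9, the sensor of unmethylated CpG DNA, shared its row in all 6 libraries with TWF2, an actin-binding protein encoded beside it on chromosome 3 (hg19, 52255096 to 52273276 in LY19WT). The shared row gave 46.8, 22.5 and 14.9 FPKM in LY19WT against 22.2, 5.91 and 3.24 FPKM in LY19Y646F. The highest LY19Y646F library overlapped the LY19WT range, and replicate 1 was the highest in both lines. Means were 28.0 ± 16.6 FPKM in LY19WT (SD, n = 3) and 10.4 ± 10.3 FPKM in LY19Y646F (SD, n = 3). The log2 difference was -1.57 ± 0.77 (SE), which did not pass the limma test, with an adjusted p of 0.21. With the replicate number as a block the adjusted p was 0.034, and the row was lower in LY19Y646F in 3 of 3 pairs of the same number. The data do not say which of the 2 genes carries the difference.

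**Figure D1:**
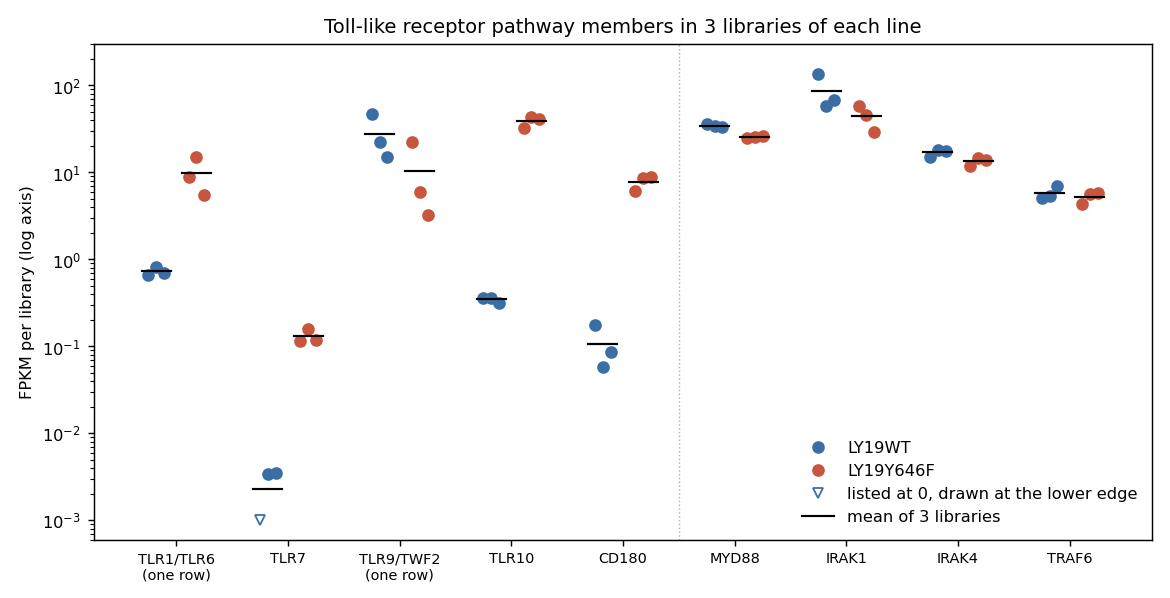
FPKM of each member in every library on a log axis, LY19WT in blue and LY19Y646F in red, with the mean of the 3 libraries as a line and an open triangle for a value listed at 0. TLR10 lies at 0.317 to 0.362 FPKM in LY19WT and at 32.1 to 43.8 FPKM in LY19Y646F, while MYD88, IRAK4 and TRAF6, right of the dotted line, stay within the same order of magnitude.

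The windows around the transcription starts of CD180, TLR6, LY86 and MYD88 are shown. LY86 encodes the secreted partner that CD180 needs at the cell surface. These windows are shown because CpG content separated TLR6, TLR9 and CD180, the receptor genes with a window, from the signalling genes. Each window holds 300 bases, most of them before the start, on the strand of the gene, from RefSeq on GRCh38.p14, 5′ to 3′, with CpG dinucleotides in capitals.
CD180 (chr5:67196750-67197049, minus strand): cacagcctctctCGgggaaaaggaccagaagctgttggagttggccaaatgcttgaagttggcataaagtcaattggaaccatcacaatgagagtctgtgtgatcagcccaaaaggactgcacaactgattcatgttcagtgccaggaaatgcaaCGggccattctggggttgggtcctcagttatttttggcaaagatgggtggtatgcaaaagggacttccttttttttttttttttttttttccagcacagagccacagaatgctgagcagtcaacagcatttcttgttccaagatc
TLR6 (chr4:38856768-38857067, minus strand): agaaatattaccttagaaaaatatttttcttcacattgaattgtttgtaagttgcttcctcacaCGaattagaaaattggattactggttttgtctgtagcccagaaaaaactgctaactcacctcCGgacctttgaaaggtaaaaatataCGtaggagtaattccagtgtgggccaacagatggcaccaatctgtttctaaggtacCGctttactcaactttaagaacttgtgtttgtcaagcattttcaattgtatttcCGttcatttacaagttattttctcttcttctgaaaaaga
LY86 (chr6:6588470-6588769, plus strand): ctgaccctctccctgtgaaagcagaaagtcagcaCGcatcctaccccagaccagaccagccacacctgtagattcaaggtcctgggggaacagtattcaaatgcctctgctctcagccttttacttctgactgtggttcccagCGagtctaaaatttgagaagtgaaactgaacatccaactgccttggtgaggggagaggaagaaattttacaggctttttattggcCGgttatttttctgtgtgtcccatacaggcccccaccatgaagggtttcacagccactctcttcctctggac
MYD88 (chr3:38138411-38138710, plus strand): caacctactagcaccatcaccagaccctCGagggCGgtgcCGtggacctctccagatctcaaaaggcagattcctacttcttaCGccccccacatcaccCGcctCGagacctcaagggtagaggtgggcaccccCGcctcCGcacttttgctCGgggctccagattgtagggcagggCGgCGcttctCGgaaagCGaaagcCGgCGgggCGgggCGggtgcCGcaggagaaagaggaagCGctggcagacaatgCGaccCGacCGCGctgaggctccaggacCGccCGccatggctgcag

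Of the 10 members 7 had such a window, and TLR1, TLR7 and TLR10 had no entry. Over 35116 promoter windows of 300 bases the median was 14 CpG, with quartiles of 4 and 28. CD180 and TLR9 held 2 CpG each, and 11.0% of windows held fewer. TLR6 held 5. LY86 held 3. Among the signalling genes MYD88 held 25 CpG, IRAK4 and TRAF6 held 28 each, and IRAK1 held 52, more than 99.2% of windows. CpG-poor starts are common among genes restricted to a few cell types, and CpG-rich starts among broadly expressed genes. On either strand, the octamer ATGCAAAT was found in the TLR9 window and in 1.77% of all windows, and the PU.1 motif GAGGAAGT in the TLR9 window and in 2.59% of all windows. A match to the NF-kB consensus was found in the IRAK1 window and in 11.3% of all windows. None of the 3 motifs was found in the windows of CD180, TLR6, MYD88, IRAK4 or TRAF6.

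**Figure D2:**
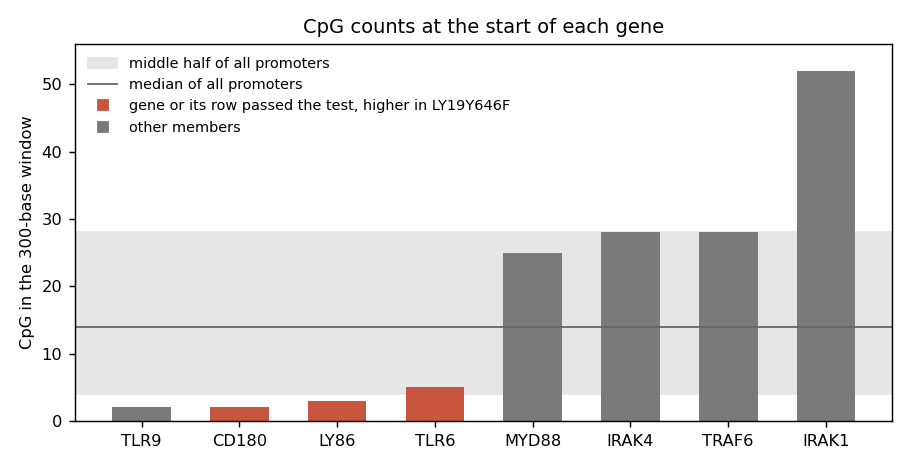
Bars give the number of CpG dinucleotides in the 300-base window of each gene with an entry, the line the median of 35116 windows (14) and the grey band their quartiles (4 to 28). TLR6, TLR9, CD180 and LY86 hold 2 to 5 CpG and the signalling genes 25 to 52. Red marks genes that passed the test as higher in LY19Y646F, TLR6 through the row it shares with TLR1.

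The log2 differences of the 4 signalling genes did not exceed 0.90 in size, and only that of MYD88 passed the test. MYD88 on chromosome 3 (hg19, 38179969 to 38184513), the adaptor shared by most Toll-like receptors, was at 36.2, 34.2 and 32.9 FPKM in LY19WT against 24.9, 25.9 and 26.2 FPKM in LY19Y646F. The lowest LY19WT library was above the highest LY19Y646F library. Means were 34.4 ± 1.69 FPKM in LY19WT (SD, n = 3) and 25.7 ± 0.723 FPKM in LY19Y646F (SD, n = 3), a ratio of LY19WT to LY19Y646F of 1.34. The log2 difference was -0.41 ± 0.088 (SE), which passed with a limma adjusted p of 0.019. It no longer passed without LY19WT replicate 2 (adjusted p = 0.070), LY19Y646F replicate 2 (0.065) or LY19Y646F replicate 3 (0.053). The authors' deposited table of line means gave 42.1 FPKM for LY19WT and 29.0 FPKM for LY19Y646F.

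IRAK4 on chromosome 12, the kinase that starts the cascade on MYD88, was at 15.0, 18.3 and 17.8 FPKM in LY19WT against 11.9, 14.6 and 14.0 FPKM in LY19Y646F. The lines did not overlap, but the gap between the nearest libraries was small. Means were 17.1 ± 1.77 FPKM in LY19WT (SD, n = 3) and 13.5 ± 1.43 FPKM in LY19Y646F (SD, n = 3). The log2 difference was -0.32 ± 0.13 (SE), with a limma adjusted p of 0.14, and the adjusted p was 0.049 with the replicate number as a block. The authors' deposited table gave 24.2 and 18.1 FPKM for LY19WT and LY19Y646F.

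IRAK1 on chromosome X, the kinase that IRAK4 phosphorylates, had the highest median of the members in both lines. Its row on chromosome X, which also names the microRNA MIR718, gave 134.8, 57.4 and 67.9 FPKM in LY19WT against 58.1, 45.7 and 29.4 FPKM in LY19Y646F. Another row of the same names, on a patch sequence of the genome build, was listed at 0 in every library. LY19WT replicate 1 was far above the other 5 libraries, and LY19Y646F replicate 1 fell within the LY19WT range. Means were 86.7 ± 42.0 FPKM in LY19WT (SD, n = 3) and 44.4 ± 14.4 FPKM in LY19Y646F (SD, n = 3). The log2 difference of -0.90 ± 0.41 (SE) did not pass, with a limma adjusted p of 0.16. It was -0.54 without LY19WT replicate 1. In LY19Y646F replicate 3 the assembled locus spanned 179893 bases, from 153105548 to 153285440 in hg19, against 9490 to 10055 bases in the other 5 libraries, and that library had the lowest value. The part of the longer locus in that value was not tested.

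TRAF6 on chromosome 11, the ubiquitin ligase downstream of the kinases, did not pass the test. It was at 5.11, 5.31 and 7.07 FPKM in LY19WT against 4.38, 5.65 and 5.82 FPKM in LY19Y646F, and the lines overlapped. Means were 5.83 ± 1.08 FPKM in LY19WT (SD, n = 3) and 5.28 ± 0.791 FPKM in LY19Y646F (SD, n = 3). The log2 difference was -0.12, with a 95% interval of -0.56 to 0.33 and a limma adjusted p of 0.65. The authors' deposited table gave 10.6 and 8.67 FPKM for LY19WT and LY19Y646F.

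**Figure D3:**
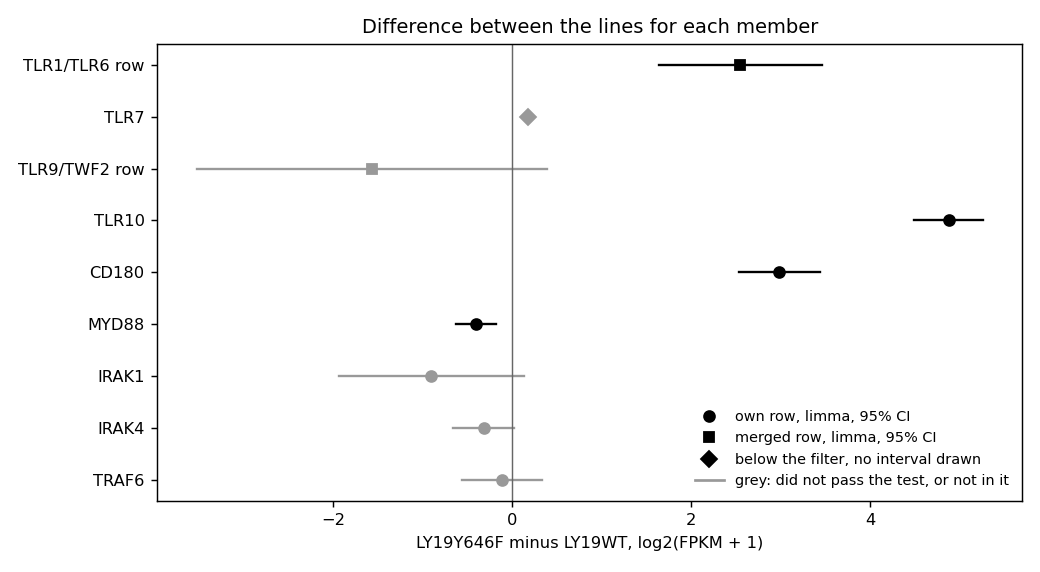
Points give the difference LY19Y646F minus LY19WT on the log2(FPKM + 1) scale and lines its 95% interval from limma, with squares for merged rows and a diamond for TLR7, which was below the minimum level. TLR10 (4.88), CD180 (2.98) and the TLR1/TLR6 row (2.55) lie right of 0, MYD88 (-0.41) lies left of it, and the intervals of IRAK1, IRAK4, TRAF6 and the TLR9/TWF2 row include 0.

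Of the 6 members in the main fit 3 passed, TLR10, CD180 and MYD88, against 33.2% of all genes tested. The libraries of the lines did not overlap for 4 of these 6, TLR10, CD180, MYD88 and IRAK4, against 48.6% of all genes tested. TLR10 and CD180 met the minimum level only through LY19Y646F and so had to differ. Neither count can therefore show that the members differ more often than other genes. In an exact two-sided permutation test on single values, where 3 libraries against 3 cannot give a p below 0.10, p was 0.10 for TLR10, CD180, TLR7, MYD88, IRAK4 and the TLR1/TLR6 row. It was 0.20 for IRAK1 and the TLR9/TWF2 row and 0.60 for TRAF6. In bulk RNA, fewer cells that express a gene and less of its RNA per cell cannot be told apart.

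Because FPKM is per length, levels can also be ordered within a line. In LY19WT the order of means was IRAK1, MYD88, the TLR9/TWF2 row, IRAK4, TRAF6, the TLR1/TLR6 row, TLR10, CD180 and TLR7. The ranges of MYD88, the TLR9/TWF2 row and IRAK4 overlapped from each to the next, and the other neighbours did not overlap. In LY19Y646F the order of means was IRAK1, TLR10, MYD88, IRAK4, the TLR9/TWF2 row, the TLR1/TLR6 row, CD180, TRAF6 and TLR7. By median the TLR9/TWF2 row, at 5.91 FPKM, was below the TLR1/TLR6 row (8.96 FPKM) and CD180 (8.54 FPKM) in LY19Y646F. In this line IRAK1 and TLR10 overlapped, and so did each neighbour in the order of means from IRAK4 to CD180. TLR10 was thus below every signalling gene in LY19WT and overlapped the highest of them in LY19Y646F. Within a library its FPKM was 0.00962 to 0.0106 of that of MYD88 in LY19WT and 1.29 to 1.69 times that of MYD88 in LY19Y646F. IRAK4 relative to MYD88 was 0.415 to 0.542 in LY19WT and 0.477 to 0.562 in LY19Y646F, and TRAF6 relative to IRAK4 was 0.289 to 0.396 and 0.369 to 0.416, so both ratios overlapped between the lines.

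The other receptors of the family were all below 1 FPKM in LY19Y646F. TLR3, the endosomal sensor of double-stranded RNA, which signals without MYD88, was at 4.81, 5.68 and 5.63 FPKM in LY19WT against 0.0561, 0.0900 and 0.00310 FPKM in LY19Y646F. It fell by 2.60 on the log2 scale (limma adjusted p = 9.5e-05) and was the only one among the 5 that reached the minimum level. It did so only through LY19WT and so had to differ. TLR2, the partner of TLR1 and TLR6, was at 0.0127 to 0.0361 FPKM in LY19WT against 0.00426 to 0.0123 FPKM in LY19Y646F. TLR4, the lipopolysaccharide receptor, was listed at 0 in LY19WT and at 0.383 to 0.583 FPKM in LY19Y646F. TLR8 was listed at 0 in LY19WT and did not exceed 0.0108 FPKM in LY19Y646F.

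Among 14 genes for co-receptors and receptor trafficking, 9 were tested, of which 4 rose and 2 fell, with a median log2 difference of 0.34, against 16.7% higher, 16.5% lower and a median of -0.033 over all genes. Of those that rose, LY86 and LGMN met the minimum level only through LY19Y646F and so had to differ. LY86, the partner of CD180, was at 0.181, 0.543 and 0.289 FPKM in LY19WT against 58.2, 58.4 and 60.8 FPKM in LY19Y646F. No library came near the other line, and the log2 difference was 5.50 (limma adjusted p = 2.1e-05). CD180 and LY86 were thus both under 1 FPKM in every LY19WT library and both above 5 FPKM in every LY19Y646F library, with CD180 at 0.104 to 0.147 of LY86 in LY19Y646F. LGMN, a lysosomal protease that can cut TLR9, rose from 0.0238 ± 0.0324 to 13.3 ± 2.71 FPKM (n = 3 each), an adjusted p of 8.6e-05 in limma. UNC93B1, the chaperone that carries the nucleic acid sensors to endosomes, was at 30.7, 27.0 and 15.6 FPKM in LY19WT against 6.03, 2.76 and 2.71 FPKM in LY19Y646F. Its libraries did not overlap, and it fell by 2.41 on the log2 scale (limma adjusted p = 0.0059). AP3B1, a subunit of a sorting adaptor for lysosome-related compartments, fell by 0.71 (0.017), and SLC15A4, an endolysosomal transporter, rose by 1.42 (0.018). With the replicate block SLC15A4 no longer passed (0.063).

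Of the 5 other adaptors 2 could be tested and neither TICAM1 nor PIK3AP1 passed. With the replicate block TICAM1, the adaptor of TLR3, passed as lower in LY19Y646F, at -0.82 (limma adjusted p = 0.023). TIRAP, which links TLR2 and TLR4 to MYD88, shared a row with DCPS in at least 1 library and was at 3.07, 4.24 and 0 FPKM in LY19WT against 0, 19.0 and 2.46 FPKM in LY19Y646F, with no separation of the lines. Among 19 kinases and proteins of the ubiquitin relay 11 were tested, 1 rose and 4 fell, with a median of -0.52, against 16.7% higher, 16.5% lower and a median of -0.033 over all genes. Of those that fell, PELI2 and IKBKG met the minimum level only through LY19WT and so had to differ. The zeros of IKBKG in LY19Y646F are also not shared by the authors' deposited table. With the replicate block 3 rose and 4 fell, TRAF3 (adjusted p = 0.019 in limma) and TAB3 (0.049) being added. PELI2 and PELI1 encode ubiquitin ligases of the same family that act on the IRAK kinases, and they moved in opposite directions. PELI2 was at 5.34, 7.04 and 5.63 FPKM in LY19WT against 0.269, 0.272 and 0.334 FPKM in LY19Y646F, a log2 difference of -2.43 (limma adjusted p = 1.8e-04). PELI1 was at 7.47, 9.28 and 8.21 FPKM in LY19WT against 17.2, 23.8 and 18.6 FPKM in LY19Y646F, a difference of 1.16 (0.0042).

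IKBKB, the IkB kinase that releases canonical NF-kB, was at 31.7, 30.2 and 25.4 FPKM in LY19WT against 9.73, 8.05 and 7.75 FPKM in LY19Y646F. It fell by 1.66 on the log2 scale (limma adjusted p = 6.7e-04). IKBKG, the scaffold of that kinase, was at 8.55, 2.26 and 3.51 FPKM in LY19WT and listed at 0 in all 3 LY19Y646F libraries (limma adjusted p = 0.0088). The authors' deposited table gave it 10.2 FPKM in LY19WT against 6.84 FPKM in LY19Y646F, so the zeros of the library tables are not shared by that table. IRAK2, another kinase of the complex, stayed at or below 0.126 FPKM in all libraries. BTK, a B cell receptor kinase that also takes part in Toll-like receptor signalling, shared a row with TIMM8A in at least 1 library. It was at 59.0, 63.4 and 75.3 FPKM in LY19WT against 60.3, 87.2 and 75.2 FPKM in LY19Y646F, with a limma adjusted p of 0.55 in the merged-row fit.

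Of 12 inhibitors of the pathway 8 were tested, 3 rose and 3 fell, with a median of 0.65, against 16.7% higher, 16.5% lower and a median of -0.033 over all genes. DUSP1, a phosphatase that switches off mitogen-activated kinases, was at 29.9, 25.8 and 29.1 FPKM in LY19WT against 1.09, 1.47 and 1.21 FPKM in LY19Y646F, a log2 difference of -3.70 (limma adjusted p = 3.5e-05). TNFAIP3, the ubiquitin-editing enzyme A20, was at 22.0, 21.8 and 20.2 FPKM in LY19WT against 3.91, 3.45 and 3.31 FPKM in LY19Y646F, a difference of -2.29 (9.1e-05). The libraries of the lines stood well apart for both genes. TRIM38 rose by 0.65 (0.0096), and RNF216, a ligase that degrades Toll-like receptors, fell by 0.52 (0.026). IRAK3, the decoy kinase of myeloid cells, stayed at or below 0.0807 FPKM in every library.

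Among 12 transcription factors 9 were tested, of which 2 rose and 2 fell, with a median of 0.14, against 16.7% higher, 16.5% lower and a median of -0.033 over all genes. Of those that rose, IRF8 met the minimum level only through LY19Y646F and so had to differ. With the replicate block 3 rose, RELB (limma adjusted p = 0.018) being added, and 1 fell. IRF8, a factor of B cells and dendritic cells, was at 0.250, 0.251 and 0.201 FPKM in LY19WT against 130.5, 207.5 and 249.3 FPKM in LY19Y646F. Its log2 difference was 7.27 (limma adjusted p = 3.5e-05), larger than that of any member. NFKB1, which encodes the p50 precursor, was at 41.6, 42.9 and 43.3 FPKM in LY19WT against 15.1, 17.6 and 15.6 FPKM in LY19Y646F, a difference of -1.35 (3.8e-04). REL, the subunit prominent in B cells, rose by 1.18 (0.022), and the repressor ATF3 fell by 0.87 (0.021), which no longer passed with the replicate block (0.067). IRF5, which acts directly downstream of MYD88, did not pass, at 0.746 ± 0.308 and 0.735 ± 0.405 FPKM (n = 3 each, limma adjusted p = 0.97). IRF7 shared a row with SIGIRR in at least 1 library and was at 2.99, 1.11 and 0.530 FPKM in LY19WT against 0, 0.152 and 0.175 FPKM in LY19Y646F, with a limma adjusted p of 0.11 in the merged-row fit.

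Of 20 genes that the pathway can induce, 7 were tested, 6 rose and 0 fell, with a median log2 difference of 1.26, against 16.7% higher and 16.5% lower among all genes tested. The list was chosen with earlier results of these data known, and its direction is a description. CD86, a co-stimulatory ligand, was at 0.111, 0.0240 and 0.0560 FPKM in LY19WT against 11.3, 14.1 and 16.1 FPKM in LY19Y646F, a difference of 3.79 (limma adjusted p = 5.9e-05). CD40, the co-stimulatory receptor of B cells, was at 1.07, 0.513 and 0.567 FPKM in LY19WT against 20.4, 13.4 and 16.2 FPKM in LY19Y646F, a difference of 3.36 (2.3e-04). In both genes the libraries of the lines were far apart. BCL2A1, an anti-apoptotic target of NF-kB, rose by 2.27 (1.7e-04) and CD83, an activation marker, by 1.26 (0.0012). Over all 7 lists of other pathway genes 47 of 87 were tested, 16 rose and 12 fell, with a median of 0.26 (18 and 12 with the replicate block). CD86 and BCL2A1, like LY86, LGMN and IRF8, met the minimum level only through LY19Y646F, and TLR3, PELI2 and IKBKG only through LY19WT.

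**Figure D4:**
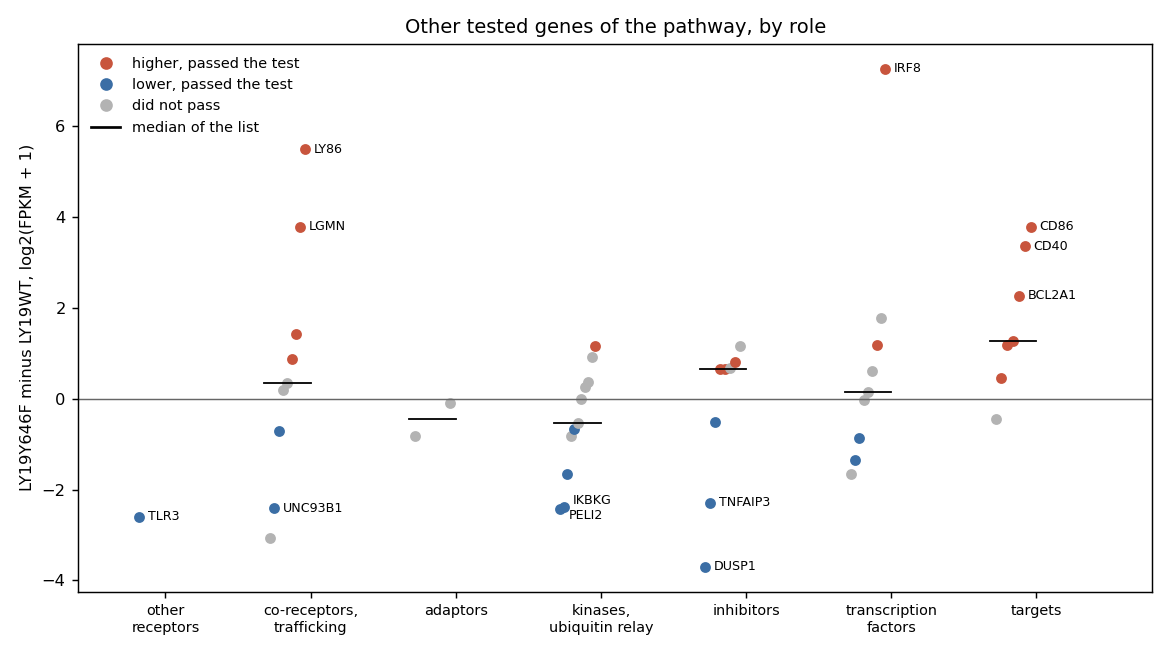
Each point is a tested gene of the pathway other than the members, grouped by role, with its difference LY19Y646F minus LY19WT on the log2(FPKM + 1) scale, coloured where it passed the limma test and named where the difference was at least 2 in size. IRF8 (7.27) and LY86 (5.50) are the highest points and DUSP1 (-3.70) the lowest that passed, and 6 of the 7 targets are coloured as higher.

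TLR10, TLR1 and TLR6 lie within 84.6 kb of chromosome 4, and within 500 kb of them stand 6 other protein-coding genes. Of these, 4 were tested, 1 rose and 0 fell, against 16.7% higher and 16.5% lower among all genes tested. TMEM156, a membrane protein gene 110 kb away, rose from 4.90 ± 0.395 to 34.0 ± 3.96 FPKM (n = 3 each, limma adjusted p = 9.9e-05). KLHL5, WDR19 and RFC1 did not pass, with log2 differences of 0.36, 0.68 and -0.46 and adjusted p of 0.30, 0.75 and 0.098. KLF3 and FAM114A1, the genes nearest on either side, were below 0.1 FPKM on average in both lines. Near CD180 the only other protein-coding gene was MAST4, at 0.208 FPKM on average in LY19WT and 0.0735 FPKM in LY19Y646F, which was not tested.

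The tested genes most like each member that passed were found by the Euclidean distance of log2(FPKM + 1) over the 6 libraries, leaving out genes of chromosome Y. For TLR10 they were NLRP11, PPP1R16B and RRAS2, at distances of 0.49, 0.56 and 0.62. NLRP11, for example, was at 0.117 ± 0.0160 FPKM in LY19WT against 38.2 ± 4.94 FPKM in LY19Y646F. For CD180 they were ZNF654, ARHGEF26 and PDGFD, at 0.31, 0.32 and 0.33. For MYD88 they were VWA9, OSTF1 and COMMD7, at 0.20, 0.23 and 0.25.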

How the data were processed

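Polyadenylated RNA of 6 libraries was sequenced with a stranded single-end protocol, per the labels' protocols. The submitters' processing notes name the hg19 build and the tools STAR 2.5.3a, Cufflinks 2.2.1 as well as Cuffdiff 2.2.1. The authors deposited FPKM per gene row with 95% intervals for each library, per the file headers, and the authors' deposited Cuffdiff table holds line means in FPKM with a log2 fold change for 13674 genes. It names 4 of the 10 members. Each library was assembled separately, so a gene can share a row with a neighbour in some libraries. A gene's value was the sum of rows where it was the only protein-coding name. Of 56584 symbols 8997 had a shared or failed row and stayed out of the main fit. The test was limma 3.58.1 under R 4.3.3 (trended empirical Bayes, two-sided) on log2(FPKM + 1), over genes whose mean FPKM was 0.5 or more. The script was tested on simulated data.

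The members and lists were chosen with earlier results of these data known. The text names all 10 members, up to 4 genes per list with the smallest adjusted p among those that passed, 11 further pathway genes whatever their result, EZH2, the genes sharing a row with a member and the 3 nearest profiles of each member that passed. Genes named beside these, such as neighbours, were added after their values were seen. Deviations from the line means correlated at 0.276, 0.112 and 0.140 for same-numbered libraries, against -0.189 to 0.0997 for others. The lowest same-number value was close to the highest of the others. The labels do not say what a number shares, so whether the libraries are paired is not settled. The replicate block is given as an alternative. P-values cover only the spread among these 6 libraries, which may be technical. The alternatives were 3 pseudocounts in all, other minimum levels, other handling of shared rows, other scalings, library weights, a replicate block and leaving out each library. Those on shared rows with another choice were chosen after seeing the data. Promoter windows were read from RefSeq on GRCh38.p14 and gene types from another annotation of GRCh38.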

Additional observations from a re-analysis of the deposited data

How the results depend on the processing

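TLR10, CD180 and the TLR1/TLR6 row kept their direction and stayed past the threshold under all 17, 16 and 9 alternatives run for them, with log2 differences of 4.79 to 6.44, 2.89 to 5.28 and 2.22 to 2.87. The TLR10 and CD180 maxima came with a pseudocount of 0.1 FPKM. MYD88 kept its direction in 18 alternatives, from -0.52 to -0.37, with adjusted p of 0.0025 to 0.070, and was lost in 3 of them, each of which leaves out 1 library. Recomputed as log2(FPKM + 1) from the line means of the authors' deposited table, its difference was -0.52 and that of TLR7 was 0.27. With the replicate block, 3860 genes and 4 members passed, the added member being IRAK4 (limma adjusted p = 0.049). IRAK4 also passed with library weights (0.023). With merged rows and the replicate block together, the TLR9/TWF2 row passed (0.034) and MYD88 did not (0.064). The block changed no other member's call, and of the other pathway genes it lost SLC15A4 and ATF3 and added TICAM1, TRAF3, TAB3 and RELB. TRAF6 turned to 0.059 under quantile normalization and to 0.0093 without LY19WT replicate 3. Leaving out each library in turn gave TRAF6 differences of -0.19 to 0.0093. The IRAK1 difference ranged from -1.14 to -0.54 over 16 alternatives and that of the TLR9/TWF2 row from -2.27 to -1.04 over 9. With merged rows counted for every gene they name, 5 members passed, against 26.1% of 17294 genes. TLR1 and TLR6 are both counted there through the row they share. With library weights 5750 genes passed, against 3546 in the main fit. Leaving out each library gave 2682 to 4003 genes and 2 to 3 members. The median log2 difference of all tested genes was -0.033 in the main fit, 0.048 under quantile normalization and -0.067 under upper quartile scaling. The causes of these shifts were not tested. Relative to the value, the deposited intervals are widest for TLR7 wherever it was above 0. In LY19WT those of CD180 follow, and then those of the TLR1/TLR6 row and TLR10, with TLR10 wider than that row in replicate 2. What part of that is depth was not tested.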

Other observations

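Most secreted products that the pathway can induce were near 0 in both lines. IL6, IL12B, CCL3, CCL4 and CCL22 stayed below 1 FPKM in every library, as did IL10 and IL12A. IL10 was listed at 0 in LY19WT and at 0.155, 0.0806 and 0.378 FPKM in LY19Y646F, and IL12A was at 0.322, 0.501 and 0.347 FPKM in LY19WT and listed at 0 in LY19Y646F. TNF was the exception among the cytokines, at 0.840, 2.03 and 1.10 FPKM in LY19WT against 4.11, 6.08 and 2.80 FPKM in LY19Y646F, a log2 difference of 1.18 (limma adjusted p = 0.036).

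BIRC3, an inhibitor of apoptosis induced by NF-kB, shared a row with its neighbour BIRC2 in at least 1 library and so stood outside the main fit. Its rows gave 14.2, 2.41 and 2.51 FPKM in LY19WT against 67.8, 90.4 and 109.0 FPKM in LY19Y646F, with a limma adjusted p of 0.010 in the merged-row fit. The authors' deposited table gave it 3.24 and 97.0 FPKM. CD80 was listed at 0 in every library table, while the authors' deposited table gave it 0.965 FPKM in LY19WT against 4.36 FPKM in LY19Y646F. These genes were chosen after their values were seen.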
